A study of Drosophila melanogaster with 26 samples.

Results

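*HeT-A*, *TAHRE* and *TART* are the 3 non-LTR retrotransposon families that make up the telomeres of *Drosophila melanogaster*, and they are called HTT elements here. Their members were taken from the row names of the deposited tables, as every insertion row whose family is *HeT-A* (FBgn0004141), *TAHRE* (FBgn0069343) or begins with *TART*. This gave 2464 of 51750 transposon insertion rows, of which 637 were *HeT-A*, 417 *TAHRE* and 1410 *TART*. The *TART* rows came in 2 forms. The 768 rows of the joint form TART-C, TART-B and TART-A (FBgn0004904) held 1598 reads, and the 642 rows named TARTA held 0 of 208463638 assigned reads, which allows up to 3 reads in all libraries together. *TART* below is therefore the joint form. Reads were found on 215 of the 2464 rows, 157 of *HeT-A*, 47 of *TAHRE* and 11 of *TART*, and the insertions were summed by family.

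The fly has no telomerase. Its chromosome ends are instead extended by HTT elements, which transpose onto the end with their 3' side first and build head-to-tail arrays. *HeT-A* encodes a Gag-like protein and no reverse transcriptase of its own, whereas *TART* and *TAHRE* encode both a Gag-like protein and a reverse transcriptase. In the female germline their transcripts are kept low by piRNAs, small RNAs that guide Piwi proteins to transposon transcripts and to the chromatin from which these are made.

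RNA was measured in whole ovaries in which *nanos*-GAL4, active in the germline, drove a hairpin against *nsl1*, *nsl2*, *nsl3* or, as control, *white*, an eye colour gene. NSL1, NSL2 and NSL3 are subunits of the nonspecific lethal complex, a chromatin complex that acts at promoters. The hairpin stocks were Bloomington 58328 for NSL1 RNAi, Bloomington 58162 for NSL2 RNAi, Vienna 108002 for NSL3 RNAi and Bloomington 35573 for white RNAi by the sample labels, although the study's own stock list gives another Vienna stock for NSL3 RNAi. The driver line also carried a *Dcr-2* transgene in all 4 groups, and the females were fed yeast paste for 3 to 5 days. Each group had 3 libraries, which the study describes as separate crosses.

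The somatic cells of the ovary did not carry the knockdown, and the study describes the NSL1 and NSL3 RNAi ovaries as rudimentary. Each hairpin came from its own fly stock, so stock and knockdown cannot be told apart. The same 3 white RNAi libraries, matched by their column names to the nonvirgin ovaries, served all 3 comparisons, although the study names virgin white RNAi ovaries as the control for NSL1 and NSL3 RNAi. Virgin controls were not analysed here.

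The libraries held 14507550 to 16699905 assigned reads in NSL1 RNAi, 14868717 to 20911687 in NSL2 RNAi, 12482452 to 15127028 in NSL3 RNAi and 20820820 to 23021900 in white RNAi. The targeted genes were lower without overlap: *nsl1* (listed as wah) had 3516 to 3833 normalized reads in NSL1 RNAi and 6409 to 6961 in white RNAi, *nsl2* (dgt1) 1128 to 1317 in NSL2 RNAi and 1638 to 1901 in white RNAi, and *nsl3* (Rcd1) 2366 to 2930 in NSL3 RNAi and 4574 to 5102 in white RNAi. Their log2 fold changes of -0.88, -0.54 and -0.92 lay under the fold minimum used below for a call, while *nsl2*, which was not the target there, was called lower in NSL1 RNAi at -1.19. The summed germline markers had 64518 to 74098 normalized reads in NSL1 RNAi and 331714 to 347239 in white RNAi, 280876 to 301992 in NSL2 RNAi and 360867 to 371620 in white RNAi, and 54159 to 161205 in NSL3 RNAi and 300607 to 317277 in white RNAi. Of 21 germline markers tested, 20, 2 and 18 were called lower in NSL1, NSL2 and NSL3 RNAi. Muscle markers were called higher for 9, 1 and 9 of 9 genes, and follicle cell markers for 13 of 15, 11 of 14 and 10 of 14. In such bulk samples, fewer cells of a type and less RNA per cell cannot be told apart.

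All 3 HTT families rose in all 3 knockdowns. A rise or fall was called at an adjusted p under 0.05 in limma and a change of more than 2-fold. Of all features tested, 33.5%, 10.2% and 31% were called higher in NSL1, NSL2 and NSL3 RNAi. Most transposon families were called higher as well, 99.1%, 83.6% and 92.3% of the 115, 110 and 104 families tested in NSL1, NSL2 and NSL3 RNAi. The call by itself was therefore common among transposons, and the HTT families are described below by the size of their change.

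*HeT-A*, the most read of the HTT families, had 5068, 4653 and 3480 normalized reads in NSL1 RNAi, against 48.2, 52.5 and 60.03 in white RNAi. Its log2 fold change was 6.32 ± 0.15 (SE, adjusted p = 7.7e-09). Even the lowest NSL1 RNAi library held 58.0 times the reads of the highest white RNAi library. In NSL2 RNAi, *HeT-A* had 17290, 8445 and 7911 normalized reads, against 51.6, 55.4 and 65.3 in white RNAi. The log2 fold change was 7.49 ± 0.28 (SE, adjusted p = 5.5e-06), and the groups lay 121-fold apart at their nearest libraries. In NSL3 RNAi it had 847, 23064 and 10786 normalized reads, against 44.1, 47.9 and 54.4 in white RNAi. This was a log2 fold change of 6.91 ± 1.09 (SE, adjusted p = 0.0013), with a wide spread among the 3 knockdown libraries and still no overlap with white RNAi, as the nearest libraries were 15.6-fold apart.

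*TAHRE*, which shares long stretches of its sequence with *HeT-A*, had 489, 425 and 367 normalized reads in NSL1 RNAi, against 11.2, 9.7 and 9.6 in white RNAi. The groups did not overlap, and the log2 fold change was 5.26 ± 0.19 (SE, adjusted p = 4.1e-08). It had 1661, 916 and 734 normalized reads in NSL2 RNAi, against 11.99, 10.2 and 10.4 in white RNAi. This was a log2 fold change of 6.45 ± 0.29 (SE, adjusted p = 1.1e-05). In NSL3 RNAi it had 83.8, 2465 and 1135 normalized reads, against 10.2, 8.8 and 8.7 in white RNAi, again with library 1 far below the other two. The log2 fold change was 5.92 ± 1.13 (SE, adjusted p = 0.0025).

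*TART*, the HTT family with the fewest reads in the knockdowns, had 79.5, 221 and 117 normalized reads in NSL1 RNAi, against 16.4, 8.9 and 13.0 in white RNAi. Its log2 fold change of 3.26 ± 0.39 (SE, adjusted p = 4.7e-05) was the smallest of the 3 families. In NSL2 RNAi it had 414, 315 and 163 normalized reads, against 17.5, 9.4 and 14.2 in white RNAi. All 3 knockdown libraries were higher, with a log2 fold change of 4.28 ± 0.37 (SE, adjusted p = 0.00025). In NSL3 RNAi it had 43.8, 316 and 147 normalized reads, against 15.0, 8.1 and 11.8 in white RNAi. The log2 fold change was 3.38 ± 0.68 (SE, adjusted p = 0.0031), and the nearest libraries were 2.93-fold apart.

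**Figure D1:**
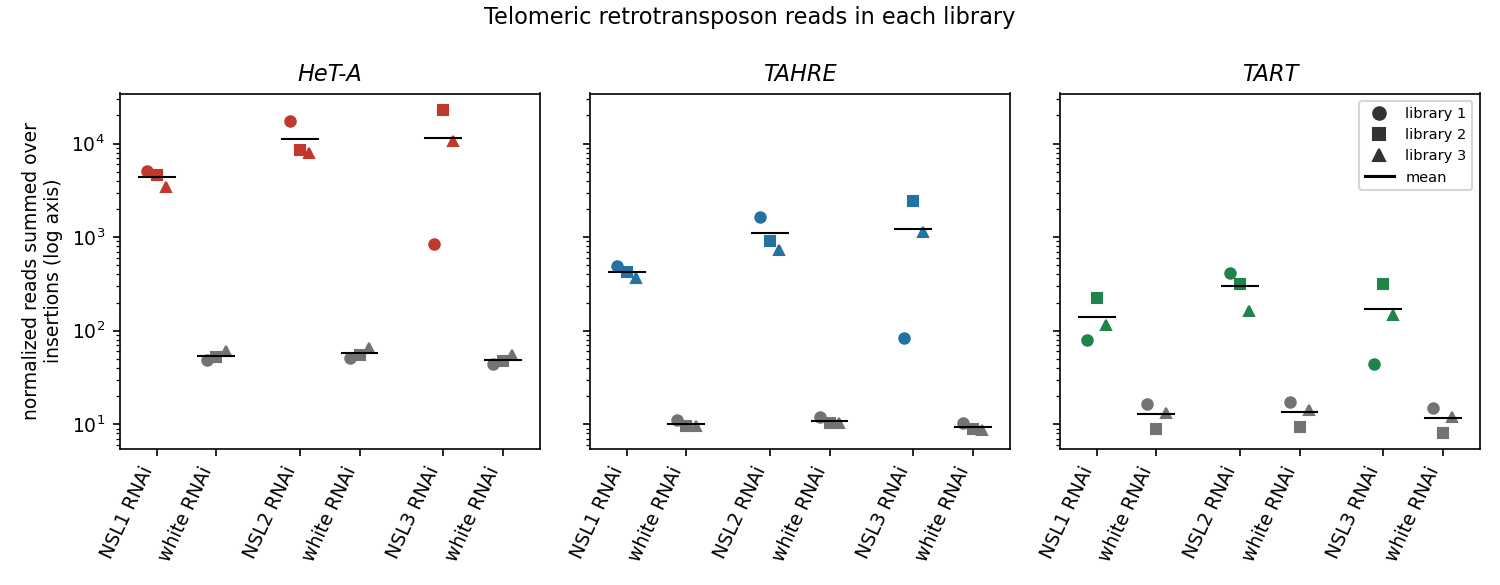
Normalized reads (log axis) of *HeT-A*, *TAHRE* and *TART* in each library of the 3 tables, knockdown left of white RNAi, each point 1 library and each bar a group mean. In all 9 pairs the knockdown points lie above the white RNAi points, and *HeT-A* in NSL3 RNAi spreads between 847 and 23064.

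The place of the HTT families among all transposons differed between the knockdowns. In NSL2 RNAi, *HeT-A* had the largest rise of 110 families, *TAHRE* ranked 5 and *TART* ranked 18. In NSL3 RNAi, *HeT-A* ranked 1, *TAHRE* 2 and *TART* 17 of 104 families. The NSL3 RNAi ranks turned on library 2, without which they were 2, 8 and 38 of 103. In NSL2 RNAi, *HeT-A* ranked 2, behind *blood*, without NSL2 RNAi library 1 or white RNAi library 3. In NSL1 RNAi the same families ranked 9, 26 and 75 of 115, below *mdg3*, an LTR retrotransposon, whose log2 fold change of 8.73 was the largest there. The median log2 fold change of the other families was 3.65 in NSL1 RNAi, 1.95 in NSL2 RNAi and 2.32 in NSL3 RNAi, so that the *TART* value in NSL1 RNAi lay below it.

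The HTT elements belong to the jockey clade of LINE elements, and 22 other families of that clade served as the nearest relatives. Of those tested, 21 of 21, 15 of 19 and 17 of 19 were called higher in NSL1, NSL2 and NSL3 RNAi. Their median log2 fold changes were 3.29, 1.31 and 1.94. *Juan* had too few reads to be tested in NSL2 RNAi. The largest value among the families tested was *Juan* at 5.26 in NSL1 RNAi, *Helena* at 3.50 in NSL2 RNAi and *Juan* at 5.53 in NSL3 RNAi. *HeT-A* exceeded each of these values, *TAHRE* did so in NSL2 and NSL3 RNAi, and *TART* in NSL2 RNAi, as a description of the ranks and without a test of each difference. Without NSL3 RNAi library 2, *TAHRE* was at 4.92 and *Juan* at 5.83, and *HeT-A* at 5.93 stood close to *Juan*.

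**Figure D2:**
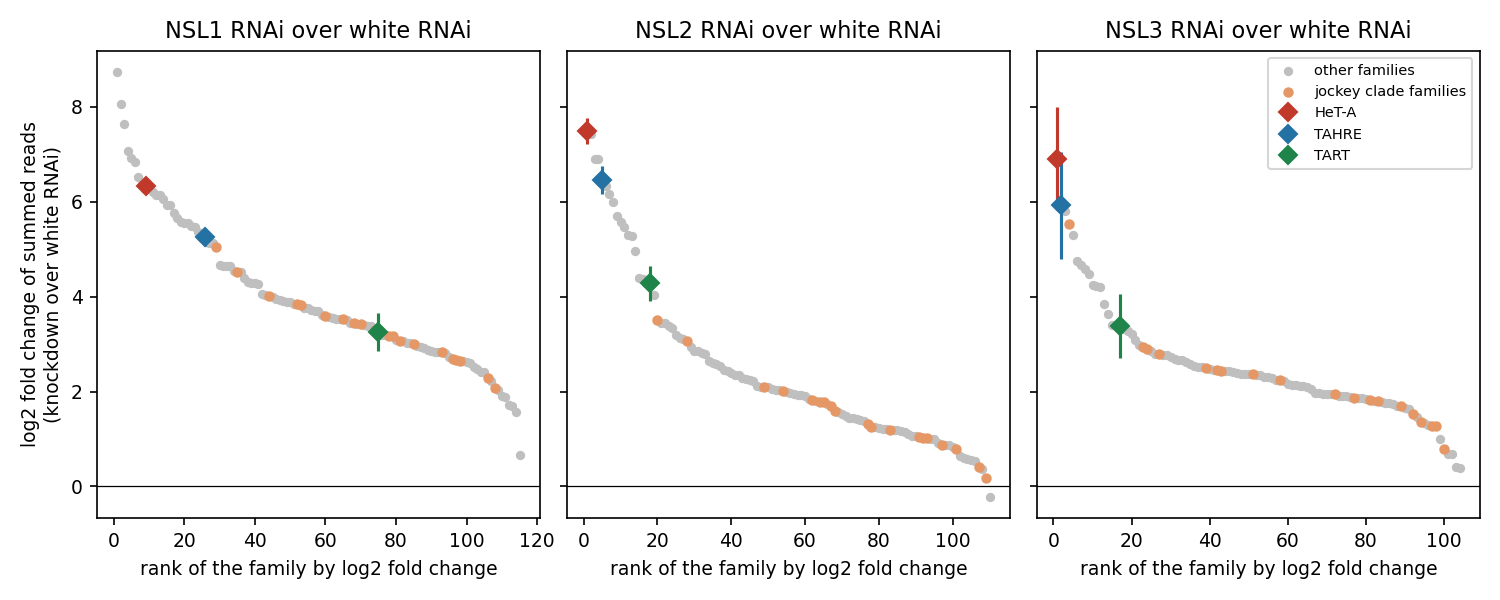
Log2 fold change over white RNAi of every transposon family tested, ordered from largest to smallest in each knockdown, with the HTT families and the jockey clade families in colours. *HeT-A* stands at rank 9 in NSL1 RNAi and at rank 1 in NSL2 and NSL3 RNAi, while *TART* stands at 75, 18 and 17.

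The share of all transposon reads that fell on HTT elements does not depend on the scaling of a library. It was 6.90%, 4.74% and 4.89% in NSL1 RNAi, 34.2%, 20.01% and 26.2% in NSL2 RNAi and 3.43%, 59.2% and 30.8% in NSL3 RNAi, against 1.91%, 1.76% and 1.41% in white RNAi. Every knockdown library was above every white RNAi library, and in NSL3 RNAi library 2 the HTT reads outnumbered those of all other transposon families together. The means exceeded the white RNAi mean of 1.69% by 3.82, 25.1 and 29.4 percentage points in NSL1, NSL2 and NSL3 RNAi. The exact two-sided permutation test gave p = 0.1 for each (adjusted p = 0.1 over 3 tests), the smallest value that 3 against 3 libraries allow. Of all assigned reads, HTT elements took 0.0275% on average in NSL1 RNAi, 0.0631% in NSL2 RNAi and 0.0745% in NSL3 RNAi, against 0.000416% in white RNAi. The NSL3 RNAi mean came from 0.00535%, 0.15% and 0.0677%, and without library 2 it was 0.0365%, below the NSL2 RNAi mean.

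Since germline RNA made up less of the NSL1 and NSL3 RNAi libraries, the HTT reads were also set against the summed germline markers of the same library. *HeT-A* had 6358 ± 1006 reads per 100000 germline marker reads in NSL1 RNAi (SD, n = 3), against 15.7 ± 2.1 in white RNAi. It had 3792 ± 1684 in NSL2 RNAi and 9387 ± 6849 in NSL3 RNAi. *TAHRE* had 619 ± 82.8, 374 ± 158 and 992 ± 735 in the 3 knockdowns, against 2.97 ± 0.22 in white RNAi. *TART* had 198 ± 92.5, 101 ± 42.4 and 148 ± 59.8, against 3.74 ± 1.08 in white RNAi. All 3 families were higher in every knockdown on this scale. This had to follow, as the summed germline markers were lower in every knockdown, so it is no separate test of the rise. With libraries scaled to the germline markers, the log2 fold changes in NSL1 RNAi became 8.60 for *HeT-A*, 7.41 for *TAHRE* and 5.43 for *TART*, beside a median of 2.35 for all features. They became 7.81, 6.75 and 4.58 in NSL2 RNAi, beside a median of 0.28, and 8.65, 7.57 and 5.04 in NSL3 RNAi, beside a median of 1.77.

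The makeup of the HTT reads differed between the knockdowns and white RNAi. *HeT-A* took on average 88.5%, 88.8% and 88.5% of HTT reads in NSL1, NSL2 and NSL3 RNAi, against 70.04% in white RNAi. *TAHRE* took 8.66%, 8.79% and 9.18%, against 13.3%. *TART* took 2.84%, 2.41% and 2.31%, against 16.6%, where the NSL3 RNAi mean came from 4.50%, 1.22% and 1.22% in libraries 1, 2 and 3. These are shares of reads and not of molecules, as they are not divided by the length of the elements. *HeT-A* had between 9.22 and 10.9 reads for each *TAHRE* read in the 9 knockdown libraries, against 4.31 to 6.27 in the 3 white RNAi libraries. It had between 19.3 and 73.4 reads for each *TART* read in the knockdown libraries, a far wider range, against 2.95 to 5.91 in white RNAi. The white RNAi shares and ratios rest on 13, 12 and 11 *TAHRE* reads and 19, 11 and 15 *TART* reads in libraries 1, 2 and 3. How reads that fit both *HeT-A* and *TAHRE* were assigned is not given in the sources used here. The *HeT-A* to *TAHRE* ratio was 10.1 in NSL3 RNAi library 1 and 9.36 in library 2, although their *HeT-A* levels were 25.3-fold apart.

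**Figure D3:**
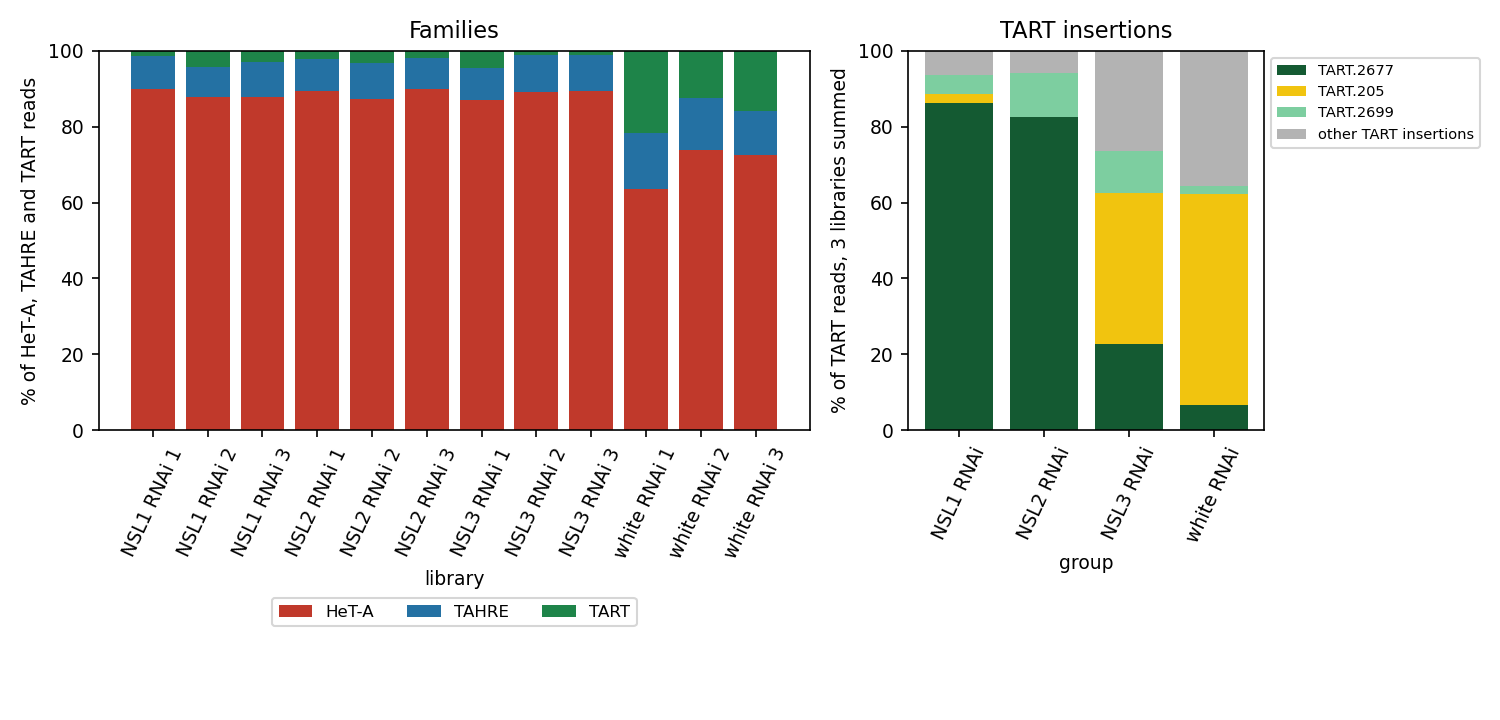
Left, the percent of HTT reads on *HeT-A*, *TAHRE* and *TART* in each of the 12 libraries, and right, the percent of *TART* reads on single insertions with the 3 libraries of a group summed. *HeT-A* takes about 88.5% of HTT reads in the knockdowns and 70.04% in white RNAi, and TART.2677 takes 86.1%, 82.5% and 22.7% of *TART* reads in the knockdowns and 6.67% in white RNAi.

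The 3 NSL3 RNAi libraries stood far apart in HTT reads. After 1 common scaling of all 12 libraries, library 2 had 25.3 times the *HeT-A* reads of library 1, 27.4 times the *TAHRE* reads and 6.70 times the *TART* reads. Among 107 other families, the median ratio between the highest and the lowest NSL3 RNAi library was 1.90 and the largest was 9.98, for *mdg3*, so that 0 of them spread as widely as *HeT-A* or *TAHRE*. In NSL2 RNAi these ratios were 2.14, 2.21 and 2.48 for *HeT-A*, *TAHRE* and *TART*, beside a median of 1.59. In NSL1 RNAi they were 1.45, 1.33 and 2.79, beside a median of 1.47.

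Markers of cell types moved with this spread. In NSL3 RNAi libraries 1, 2 and 3 the germline markers summed to 54159, 161205 and 87778 normalized reads, the follicle cell markers to 73692, 119399 and 98810, the muscle markers to 531525, 259050 and 455008, and the hemocyte markers to 117675, 57060 and 92507. Library 2, which had the most HTT reads, had the most germline and the least muscle RNA, and library 1 the reverse. Per 100000 germline marker reads, *HeT-A* still had 1564, 14307 and 12288 reads in these libraries. The part of the cell makeup in the HTT values was not tested.

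The knockdowns were compared with each other in 1 fit of all 12 libraries. None of the HTT families was called different between any 2 knockdowns by limma or edgeR, and none had an unadjusted p under 0.05. *HeT-A* differed by -1.03 between NSL1 and NSL2 RNAi on the log2 scale (95% interval -2.94 to 0.89, adjusted p = 0.292 in limma), *TAHRE* by -1.05 (-2.99 to 0.90, adjusted p = 0.293) and *TART* by -0.87 (-2.22 to 0.47, adjusted p = 0.206). The fit took 1 spread per feature from all 12 libraries, so the wide NSL3 RNAi spread also entered these intervals. They are wide and do not show equal levels. In the same contrast 84.1% of 113 families were called, 94 of them higher in NSL1 RNAi, with a median of 1.82 over all families. The HTT values stood at the low end of that order, with 110, 111 and 109 families above *HeT-A*, *TAHRE* and *TART*.

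Between NSL1 and NSL3 RNAi the differences were -0.56 (-2.47 to 1.36, adjusted p = 0.635), -0.65 (-2.60 to 1.30, adjusted p = 0.586) and -0.10 (-1.45 to 1.24, adjusted p = 0.907) for *HeT-A*, *TAHRE* and *TART*. Here 57.5% of the families were called, all of them higher in NSL1 RNAi, and 111, 112 and 107 families lay above the HTT families. Between NSL3 and NSL2 RNAi the differences were -0.47 (-2.38 to 1.45, adjusted p = 0.635), -0.40 (-2.35 to 1.55, adjusted p = 0.693) and -0.77 (-2.12 to 0.57, adjusted p = 0.266), while 48.7% of the families were called.

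These contrasts turned on NSL3 RNAi library 1 and on the scaling. Without that library, *HeT-A* was called lower by limma in NSL1 than in NSL2 RNAi (-1.03 ± 0.31, SE, adjusted p = 0.0095) and lower in NSL1 than in NSL3 RNAi (-1.95 ± 0.34, adjusted p = 0.0020). The NSL1 minus NSL2 value stayed the same and only its SE fell, from 0.87, as that library is in neither group. *TAHRE* was likewise called, at -1.05 ± 0.31 (adjusted p = 0.0084) and -2.06 ± 0.34 (adjusted p = 0.0014). The NSL3 minus NSL2 values turned to 0.92 ± 0.34 (adjusted p = 0.033) for *HeT-A*, under the fold minimum, and 1.02 ± 0.34 (adjusted p = 0.020) for *TAHRE*, which was called. With libraries scaled to the germline markers, the NSL1 minus NSL2 values were 0.82, 0.80 and 0.96 for *HeT-A*, *TAHRE* and *TART*, against a family median of 3.60, and only 2, 1 and 3 of 117 families lay below them. Such a scaling moves all families by nearly the same amount, so it could hardly change their order and is no separate test of it. The direction of the HTT values differed between the scalings.

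The reads were spread unevenly over the insertions of each family. An insertion is named here by its family and the number that the tables give it. The tables give no coordinates for these rows, and how reads that fit several copies were assigned is not given in the sources used here, so the assignment of reads to a single copy is uncertain. In the fit with every insertion as its own feature, 41, 57 and 59 HTT insertions were tested in NSL1, NSL2 and NSL3 RNAi, of which 41, 57 and 55 were called higher and 0 lower, 4 in NSL3 RNAi passing neither way. Over all families, 98.1%, 82.6% and 93.7% of the insertions tested were called higher. The HTT insertions passed the minimum mean of 10 normalized reads only through the knockdown, as the most read of them had 29 reads in the 3 white RNAi libraries together, so these counts carry no weight of their own.

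HeT-A.1 was the most read insertion of its family. It had 1011, 830 and 724 reads in NSL1 RNAi, 3740, 2129 and 2157 in NSL2 RNAi and 140, 6011 and 2092 in NSL3 RNAi, against 6, 15 and 8 in white RNAi. These were 23.0%, 27.3% and 28.9% of the *HeT-A* reads of NSL1, NSL2 and NSL3 RNAi, against 15.3% in white RNAi (exact 95% interval 10.5 to 21.2). The log2 fold changes were 6.85 ± 0.30, 8.27 ± 0.39 and 7.60 ± 1.23 (SE). Removing this insertion from the family left log2 fold changes of 6.18, 7.28 and 6.70 for *HeT-A*, so that the family rise did not rest on 1 row. Intervals on read shares cover counting error only.

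The next *HeT-A* insertions followed the same pattern. HeT-A.103 had 265, 229 and 201 reads in NSL1 RNAi, 1113, 883 and 954 in NSL2 RNAi and 24, 1480 and 546 in NSL3 RNAi, against 3, 3 and 2 in white RNAi. HeT-A.10 had 384, 404 and 349, then 1120, 654 and 606, then 55, 943 and 375 in the same knockdowns, against 9, 6 and 8 in white RNAi. HeT-A.146 had 120, 134 and 111, then 672, 526 and 461, then 17, 798 and 308, against 1, 1 and 1 in white RNAi. In each of them the lowest of the 9 knockdown libraries was NSL3 RNAi library 1 and still lay above white RNAi. HeT-A.109 had 121, 135 and 101, then 271, 179 and 196, then 89, 1021 and 420, against 5, 8 and 8 in white RNAi. Together these 5 rows held 45.9%, 53.3% and 50.2% of the *HeT-A* reads in NSL1, NSL2 and NSL3 RNAi, against 44.2% in white RNAi.

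In *TAHRE*, 1 insertion held most of the knockdown reads. TAHRE.1217 had 241, 159 and 171 reads in NSL1 RNAi, 703, 477 and 391 in NSL2 RNAi and 24, 1136 and 451 in NSL3 RNAi, against 1, 1 and 2 in white RNAi. It held 52.6%, 54.2% and 53.2% of the *TAHRE* reads in the knockdowns, against 11.1% in white RNAi, where that share rests on 4 of 36 reads (exact 95% interval 3.11 to 26.1). Without that insertion the family still rose, with log2 fold changes of 4.34, 5.50 and 5.10. TAHRE.88 had 31, 21 and 17 reads in NSL1 RNAi, 166, 98 and 98 in NSL2 RNAi and 5, 128 and 47 in NSL3 RNAi, against 0 reads in all 3 white RNAi libraries. With a floor of 3 reads over the white RNAi group, this was at least 32.6-, 143- and 93.9-fold higher as a share of assigned reads in NSL1, NSL2 and NSL3 RNAi. TAHRE.6 had 16, 28 and 18, then 70, 55 and 33, then 6, 165 and 51 reads, against 2, 1 and 2 in white RNAi.

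In NSL1 and NSL2 RNAi, *TART* was the HTT family with the largest share of its reads on a single insertion. TART.2677 had 49, 153 and 102 reads in NSL1 RNAi and 232, 275 and 141 in NSL2 RNAi, but 13, 59 and 22 in NSL3 RNAi, against 1, 0 and 2 in white RNAi. It held 86.1% (exact 95% interval 82.1 to 89.6) of the *TART* reads in NSL1 RNAi and 82.5% (79.7 to 85.1) in NSL2 RNAi, but 22.7% (18.7 to 27.0) in NSL3 RNAi, against 6.67% (1.40 to 18.3) in white RNAi. Without it, the log2 fold change of *TART* in NSL1 RNAi was 0.46 ± 0.55 (SE, adjusted p = 0.438), and the call was lost. In NSL2 RNAi the value was 1.81 ± 0.48 (adjusted p = 0.023) and in NSL3 RNAi 3.01 ± 0.75 (adjusted p = 0.0079), both still called.

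The *TART* reads of NSL3 RNAi fell mostly on other rows. TART.205 had 6, 112 and 47 reads in NSL3 RNAi, 5, 3 and 1 in NSL1 RNAi and 0 in all 3 NSL2 RNAi libraries, against 15, 3 and 7 in white RNAi. Its 0 of 785 *TART* reads in NSL2 RNAi allows a share of up to 0.382%, whereas it held 39.8% (exact 95% interval 35.0 to 44.6) of the *TART* reads in NSL3 RNAi and 55.6% in white RNAi. As a share of assigned reads it was at least 72.8-fold higher in NSL3 than in NSL2 RNAi, with a floor of 3 reads over the NSL2 RNAi group. Its rise in NSL3 RNAi over white RNAi, 2.72 ± 1.02 on the log2 scale (SE, adjusted p = 0.041 in limma), was close to the threshold. The value was 2.21 and 2.72 without white RNAi library 2 or 3 (adjusted p = 0.125 and 0.092) and 1.92 and 2.38 without NSL3 RNAi library 2 or 3 (adjusted p = 0.087 and 0.122), so that the call was lost, while without NSL3 RNAi library 1 it was 3.86 (adjusted p = 0.0028). TART.2699 had 8, 5 and 4 reads in NSL1 RNAi, 51, 20 and 20 in NSL2 RNAi and 3, 34 and 9 in NSL3 RNAi, against 0, 0 and 1 in white RNAi.

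**Figure D4:**
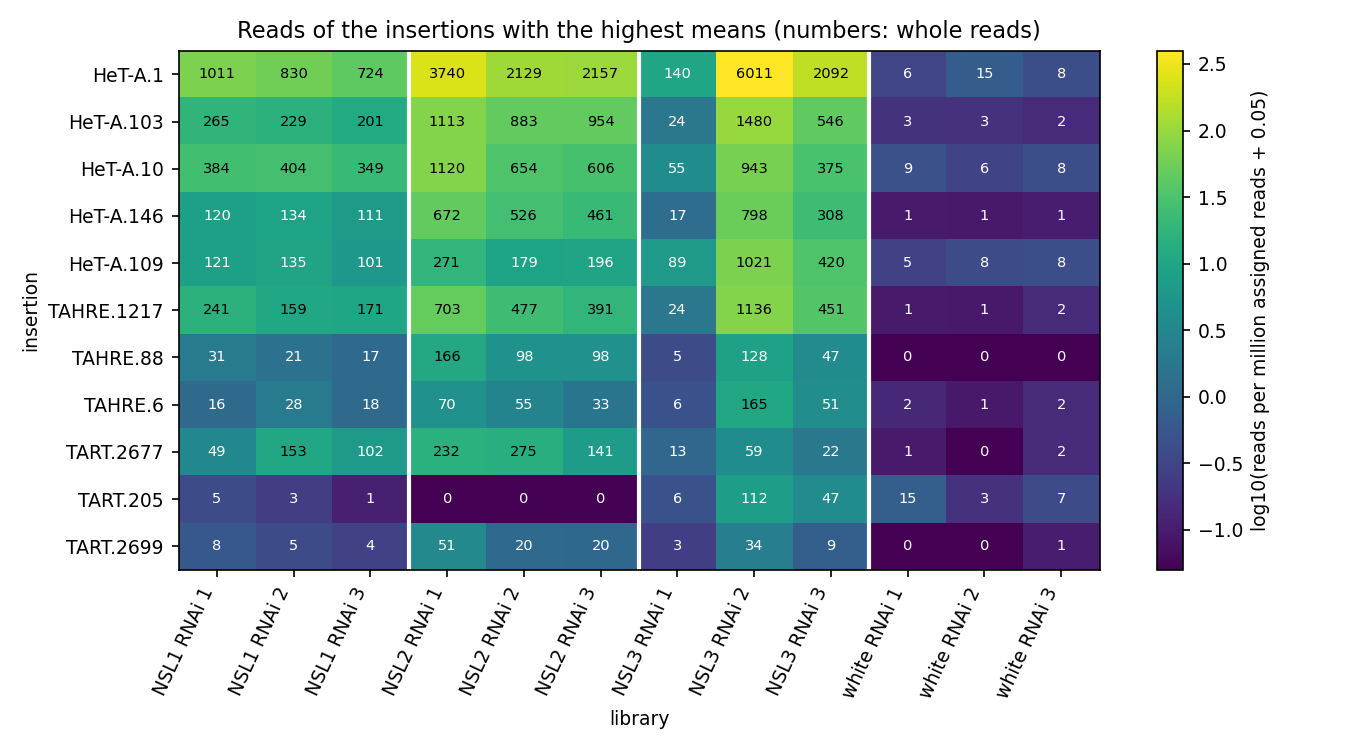
Reads in each of the 12 libraries for the insertions with the highest mean, 5 of *HeT-A*, 3 of *TAHRE* and 3 of *TART*, knockdowns left of white RNAi, with numbers for whole reads and colour for reads scaled to depth on a log10 scale. TART.2677 has 141 to 275 reads in NSL2 RNAi and 13 to 59 in NSL3 RNAi, while TART.205 has 0 in NSL2 RNAi and 6 to 112 in NSL3 RNAi.

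A fit of single insertions over all 12 libraries tested 64 HTT rows between the knockdowns. It called 3 between NSL1 and NSL2 RNAi, 7 between NSL3 and NSL2 RNAi and 10 between NSL1 and NSL3 RNAi, 14 distinct rows in all. Over all families, 69.7%, 65% and 57.8% of the insertions were called in these contrasts. TART.205 and TART.2677 moved in opposite directions between NSL3 and NSL2 RNAi, by 5.43 ± 0.87 (SE, adjusted p = 0.00017 in limma) and -2.41 ± 0.56 (adjusted p = 0.0022). The first depends on the pseudocount because NSL2 RNAi had 0 reads. None of the 64 rows reached the minimum mean through white RNAi, so a row could enter the fit through the knockdown where it was high. The calls and p-values of this fit therefore carry no weight of their own. HeT-A.115 had 15, 8 and 12 reads in NSL1 RNAi, 0 in all 3 NSL2 RNAi libraries and 8, 166 and 72 in NSL3 RNAi, against 2, 1 and 1 in white RNAi. It was at least 109-fold higher as a share of assigned reads in NSL3 than in NSL2 RNAi. TAHRE.2 had 1, 0 and 1, then 17, 24 and 1, then 3, 239 and 78 reads in NSL1, NSL2 and NSL3 RNAi, against 0, 0 and 1 in white RNAi. HeT-A.115 and TAHRE.2 were chosen after their values were seen.

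Genes that act on the telomere arrays or on their transcripts were read in the same fit. The list held 34 genes: 8 of the telomere cap, 8 that act on the array promoter or its chromatin, 2 of RNA turnover and 16 of piRNA silencing. The cap gene *moi* had 0 reads in every library and was not tested. Of the 33 tested, 13 were called lower in NSL1 RNAi, 0 in NSL2 RNAi and 14 in NSL3 RNAi, and 0 were called higher. Over all features, 19.9%, 1.15% and 14.2% were called lower at the same thresholds. In NSL2 RNAi, edgeR and DESeq2 also called 0 of the list lower. At an unadjusted p under 0.05 in limma and with no fold minimum, 17 of the list were lower and 2 higher in NSL2 RNAi. The share of all features at that looser cutoff was not counted, so these counts have no background. The medians of the list were -0.87, -0.21 and -0.92 on the log2 scale, beside -0.08, -0.03 and -0.09 for all features. Scaling to the germline markers moves every feature upwards, and on that scale 0 of the genes were called lower, with list medians of 1.43, 0.11 and 0.85 beside 2.35, 0.28 and 1.77 for all features. The list medians lay below those of all features on both scales, an order that such a shift could hardly change. The part of the lower germline RNA in these values was not tested.

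Among the cap genes, *cav* encodes HOAP, a protein of the telomere cap. It had 428, 404 and 353 normalized reads in NSL1 RNAi, against 1791, 1895 and 1620 in white RNAi, a log2 fold change of -2.16 ± 0.10 (SE, adjusted p = 9.3e-08). In NSL3 RNAi it had 446, 896 and 524, against 1637, 1728 and 1468 in white RNAi, or -1.44 ± 0.25 (adjusted p = 0.0018). *HipHop*, whose product binds HOAP at the cap, was called lower at -1.72 in NSL1 and -1.92 in NSL3 RNAi. The zinc finger gene *woc* was called at -1.004 ± 0.06 (SE) in NSL1 RNAi, at the fold minimum, and was -0.92 ± 0.17 (adjusted p = 0.0023) in NSL3 RNAi, just short of it. Of the array promoter and chromatin genes, *Dref*, a promoter-binding factor, was called at -1.002 in NSL1 and -1.23 in NSL3 RNAi, and *prod*, a DNA-binding protein, at -1.17 in NSL1 RNAi. The *woc* and *Dref* calls in NSL1 RNAi were lost with edgeR and DESeq2, at -0.93 to -0.84, and without white RNAi library 1 (-0.98 and -0.99) or NSL1 RNAi library 3 (-0.96 for both), and that of *Dref* also without white RNAi library 2 (-0.96). *twin*, a deadenylase of the CCR4-NOT complex, was called at -1.47 in NSL1 RNAi.

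Of the 16 piRNA silencing genes, 7 were called lower in NSL1 RNAi, 0 in NSL2 RNAi and 11 in NSL3 RNAi. *rhi*, *del* and *moon* act in the transcription of piRNA clusters from heterochromatin. They were called lower at -1.62, -1.85 and -1.49 in NSL1 RNAi and at -1.86, -1.45 and -1.50 in NSL3 RNAi. *AGO3*, a Piwi protein of the ping-pong cycle, was called at -2.55 in NSL1 and -1.69 in NSL3 RNAi, *zuc*, the nuclease of piRNA processing, at -1.43 and -1.59, the RNA helicase gene *vas* at -1.36 and -1.43, and the SUMO ligase gene *Su(var)2-10* at -1.66 and -1.29. *aub*, another Piwi protein of the ping-pong cycle, *spn-E*, a helicase of piRNA production, *mael* and *nxf2*, which act in transcriptional silencing, were called in NSL3 RNAi only, at -1.08, -1.21, -1.55 and -1.17; these differences between knockdowns were not tested. The *aub* call was lost with edgeR, DESeq2 and median-of-ratios scaling (-0.97, -0.89 and -0.98) and without NSL3 RNAi library 1 (-0.81), and the *nxf2* call with DESeq2 (-0.98). In NSL2 RNAi the list ranged from -0.48 for *rhi* to 0.39 for *moon*. On the germline marker scale, 12 of the 13 genes called in NSL1 RNAi and 12 of the 14 called in NSL3 RNAi had values above 0. That scale shifts all features by nearly the same amount. All of the called genes stayed below the median of all features, an order that such a shift could hardly change.

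**Figure D5:**
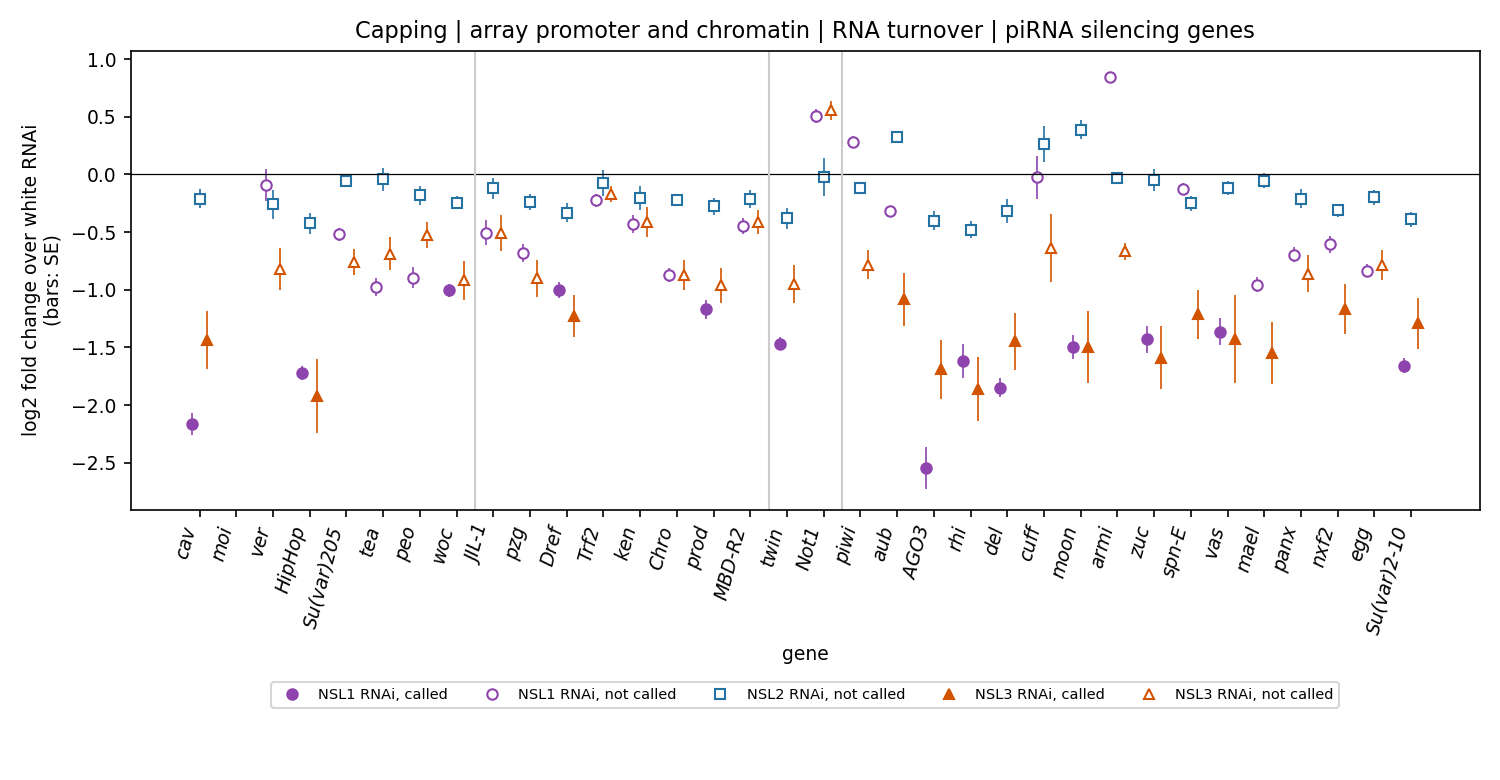
Log2 fold change over white RNAi (bars, SE) of the 33 tested genes of the telomere cap, the array promoter and chromatin, RNA turnover and piRNA silencing, with filled symbols for called genes. In NSL2 RNAi all lie between -0.48 and 0.39, and in NSL1 RNAi *AGO3* lies lowest at -2.55.

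Over the 12 libraries the HTT families moved nearly together. On the log2 scale, Pearson's r was 0.997 between *HeT-A* and *TAHRE*, 0.966 between *HeT-A* and *TART* and 0.967 between *TAHRE* and *TART*. Within the groups, around the group means, these were 0.99, 0.81 and 0.82. Of 9179 genes and other families, those most like *HeT-A* were *CG32816* (r = 0.97), *Vml* (0.95) and *CG9766* (0.95). *TAHRE* was most like *CG32816* (0.97), *Vml* (0.95) and *qkr58E-1* (0.95), and *TART* was most like *Vm26Ab* (0.96), *CG32816* (0.94) and *Vml* (0.94). Around the group means, these genes in the order named had r of 0.89, 0.87 and 0.69 with *HeT-A*. The values were 0.87, 0.84 and 0.82 with *TAHRE* and 0.79, 0.69 and 0.72 with *TART*. *Vml* and *Vm26Ab* encode proteins of the vitelline membrane, which follicle cells lay around the egg. These values are descriptions over 12 libraries that share groups and depth.

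The listed follicle cell markers were also higher in all 3 knockdowns. The summed follicle markers had 127734 to 186566 normalized reads in NSL1 RNAi and 14279 to 45531 in white RNAi, 223981 to 452551 in NSL2 RNAi and 15281 to 49532 in white RNAi, and 73692 to 119399 in NSL3 RNAi and 13047 to 41261 in white RNAi. All 15 markers of this list had a higher mean in each knockdown. The part of follicle cell RNA in the HTT values was not tested.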

How the data were processed

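Total RNA of whole ovaries, depleted of ribosomal RNA, was sequenced in 4 groups of 3 libraries. The deposited values are a signal, reads per gene, insertion, other repeat or piRNA cluster that the authors divided by 1 size factor per library, with 1 table for each knockdown beside white RNAi. According to the study, reads were aligned to dm3 with STAR in piPipes and counted with featureCounts or eXpress; the submitters' processing notes name DESeq2 and dm3. The tables also hold the authors' own log2 fold changes and p-values, which were not used. How reads that fit several copies were shared out is not given in the sources used here. The study states ERCC spike-in size factors, but the tables hold 0 ERCC rows.

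Each table has 72525 rows, of which 15340 are genes, 51750 transposon insertions of 121 families (both *TART* forms joined), 5293 other repeats and 142 piRNA clusters. Multiplied by its size factor, 100% of values came within 1e-06 of a whole read, and the white RNAi reads differ in 0 cells between the tables. These reads sum to 12482452 to 23021900 per library, and families with few reads, such as *TART* in white RNAi, are limited by counting error. The labels number replicate 1 only, and columns numbered 2 and 3 were taken as the other crosses. 0 value columns went unused.

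Insertions were summed by family. limma 3.58.1 in R 4.3.3, with a mean-variance trend, was fitted on log2(value + 1) to all features of a table with a mean of at least 10, and p-values were adjusted over all of them by the Benjamini-Hochberg method; a pseudocount of 1 understates changes of low features. Knockdowns were compared with each other in 1 limma fit of all 12 libraries after a common median-of-ratios scaling. A read share was compared by an exact permutation test. In fold values of single insertions, a group with fewer than 3 reads was given a floor of 3 reads, as was a group with 0 reads in a share. The alternatives were edgeR 4.0.16 and DESeq2 1.42.0 on recovered reads, other scalings and a pseudocount of 0.5 or 5. Others were a minimum mean of 50 or none, no fold minimum, each library left out and each family without its top insertion. The fits were tested on simulated data. Python 3.11.15 with pandas 2.3.3, numpy 2.4.6, scipy 1.17.1 and matplotlib 3.10.9 did the rest.

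The members and gene lists were chosen with earlier results of these data known. The genes named are the 3 families and the *TART* forms, the insertions with the highest mean (5 of *HeT-A*, 3 of *TAHRE*, 3 of *TART*), the targeted genes, the regulators called in any knockdown, and the 3 genes most like each family; jockey clade families, germline, follicle, muscle, hemocyte and fat body markers served for comparison. Fat body markers were called higher for 5 of 5, 1 of 1 and 3 of 3 genes tested in NSL1, NSL2 and NSL3 RNAi, and hemocyte markers for 4 of 5, 0 of 3 and 5 of 6.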

Additional observations from a re-analysis of the deposited data

Results flagged for a closer look

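The single-insertion fit over all 12 libraries (limma, adjusted over every feature) called 20 differences between knockdowns, in 14 of 64 HTT insertions, which is what singled them out; 1 row is given with several contrasts. Values are log2 differences, and those against a group with 0 reads depend on the pseudocount and bound nothing. A row could pass the minimum mean through the knockdown where it was high, so these calls carry no weight of their own. Between NSL1 and NSL2 RNAi, HeT-A.115 was higher in NSL1 RNAi (3.76), and TART.2699 (-1.82) and TAHRE.88 (-2.00) were lower.

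Between NSL3 and NSL2 RNAi, HeT-A.115 (5.94), TART.205 (5.43) and TAHRE.1223 (4.35) were higher in NSL3 RNAi. All 3 had 0 reads in the 3 NSL2 RNAi libraries. Lower in NSL3 RNAi were HeT-A.111 (-3.21), HeT-A.321 (-3.06), TART.2677 (-2.41) and HeT-A.47 (-1.40).

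Between NSL1 and NSL3 RNAi, HeT-A.111 (2.82) and TART.2677 (1.57) were higher in NSL1 RNAi. TAHRE.2 (-5.04), TAHRE.1223 (-3.98), HeT-A.7 (-3.61), TART.205 (-3.45), HeT-A.169 (-2.54), HeT-A.115 (-2.18), TAHRE.8 (-1.85) and HeT-A.109 (-1.73) were lower. TAHRE.1223 had 1, 0 and 0 reads in NSL1 RNAi and 1, 85 and 25 in NSL3 RNAi, against 2, 0 and 0 in white RNAi.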

How the results depend on the processing

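The rise of the 3 families over white RNAi was called in 161 of 162 alternatives, with log2 fold changes from 0.46 to 8.65. The exception was *TART* in NSL1 RNAi without TART.2677 (0.46). The alternatives include the main fit read without a fold minimum and the germline marker scaling. In both a rise had to follow, so the tally is not a count of separate tests. With a library left out, *HeT-A* ranged from 6.21 to 6.48 in NSL1, 7.13 to 7.70 in NSL2 and 5.93 to 8.31 in NSL3 RNAi, *TAHRE* from 5.15 to 5.36, 6.11 to 6.70 and 4.92 to 7.35, and *TART* from 2.86 to 3.59, 3.99 to 4.66 and 2.73 to 4.14. With library number as a replicate block, every family stayed called, *TART* in NSL3 RNAi least clearly (3.38 ± 0.71, SE, adjusted p = 0.0084 in limma). The numbers did not pair the libraries, as same-numbered knockdown and white RNAi libraries correlated at -0.42 to 0.25 over 8014 features, and 2 of the 9 correlated best with their own number.

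Between knockdowns, leaving out a library gave -1.22 to -0.68, -1.29 to -0.71 and -1.27 to -0.54 for *HeT-A*, *TAHRE* and *TART* in NSL1 against NSL2 RNAi. It gave -1.41 to 0.92, -1.36 to 1.02 and -1.39 to -0.033 in NSL3 against NSL2 RNAi, where *TART* was called without NSL3 RNAi library 2 (-1.39, adjusted p = 0.038). It gave -1.95 to 0.39, -2.06 to 0.32 and -0.84 to 0.52 in NSL1 against NSL3 RNAi. The families called ranged from 0 to 2, 0 to 1 and 0 to 2 in these contrasts. Germline marker scaling turned the sign to 0.82, 0.80 and 0.96 in NSL1 against NSL2 RNAi, to 0.87, 0.93 and 0.55 in NSL3 against NSL2 RNAi, and to 0.41 for *TART* in NSL1 against NSL3 RNAi; TMM gave 0.015 for the last. edgeR turned NSL3 against NSL2 RNAi to 0.35 for *HeT-A* and 0.46 for *TAHRE*. The cause of these changes of sign was not tested.

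The HTT insertions called higher numbered 94 and 114 in NSL1 and NSL2 RNAi with no filter, and 12, 24 and 21 in NSL1, NSL2 and NSL3 RNAi with a minimum mean of 50, as other numbers of rows were tested. With a library left out they ranged from 34 to 44, 48 to 65 and 41 to 64. At the main settings 98.1%, 82.6% and 93.7% of the tested insertions of all families were called higher. That share was not counted at the other settings, so these counts have no background and carry no weight of their own. The difference in HTT share of transposon reads ranged from 3.13 to 4.21, 21.4 to 28.5 and 15.4 to 43.3 percentage points.

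The alternatives for regulators, for insertions between knockdowns, for family ranks and for the share of assigned reads were added after the data were seen. Germline marker scaling left 0 regulators called lower in NSL1 and in NSL3 RNAi. It turned NSL1 RNAi values to *cav* 0.14, *HipHop* 0.58, *woc* 1.30, *Dref* 1.31, *prod* 1.14, *twin* 0.84, *rhi* 0.69, *del* 0.46, *moon* 0.81, *zuc* 0.87, *vas* 0.94 and *Su(var)2-10* 0.65. It turned NSL3 RNAi values to *cav* 0.33, *Dref* 0.54, *AGO3* 0.073, *del* 0.32, *moon* 0.26, *zuc* 0.17, *vas* 0.34, *Su(var)2-10* 0.47, *aub* 0.68, *spn-E* 0.55, *mael* 0.21 and *nxf2* 0.60. *woc* and *Dref* in NSL1 RNAi and *aub* in NSL3 RNAi fell under the fold minimum with edgeR (-0.93, -0.93 and -0.97), with DESeq2 (-0.84, -0.84 and -0.89) and with median-of-ratios scaling over genes (-0.86, -0.86 and -0.98), and *nxf2* in NSL3 RNAi with DESeq2 (-0.98). Without white RNAi library 1 or NSL1 RNAi library 3 the *woc* call (-0.98 and -0.96) and the *Dref* call (-0.99 and -0.96) were lost, as were the *Dref* call without white RNAi library 2 (-0.96) and the *aub* call without NSL3 RNAi library 1 (-0.81).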

Other observations

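2 piRNA clusters that the study describes as telomeric and as holding HTT arrays have rows of their own in the tables. cluster22 had 876, 1719 and 1031 normalized reads in NSL1 RNAi, against 184, 179 and 230 in white RNAi, 1485, 1175 and 862 in NSL2 RNAi, against 196, 188 and 250 in white RNAi, and 467, 1763 and 1005 in NSL3 RNAi, against 168, 163 and 208 in white RNAi. Its log2 fold changes were 2.56 ± 0.23, 2.44 ± 0.20 and 2.39 ± 0.44 (SE), all called higher by limma, and NSL3 RNAi library 1 was again the lowest of its group. cluster3 had log2 fold changes of 2.02 ± 0.13 in NSL1 RNAi and 2.28 ± 0.18 in NSL3 RNAi, both called, and 0.83 ± 0.16 in NSL2 RNAi (adjusted p = 0.0090), under the fold minimum. The study also calls cluster97 telomeric. After the common scaling its mean was 276, 117 and 164 reads in NSL1, NSL2 and NSL3 RNAi, against 26.4 in white RNAi. Whether cluster rows and insertion rows share reads is not given in the sources used here.

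*TART* had 7 insertions with at least 20 reads in all. As a share of assigned reads, 4 of them were higher than white RNAi and 2 lower in NSL1 RNAi, and 4 higher and 2 lower in NSL2 RNAi. In NSL3 RNAi 7 were higher and 0 lower, among them TART.2678 on 2 reads against 0. TART.26 could not be placed in NSL1 and NSL2 RNAi, with 0 reads against 3 in white RNAi. A row could reach 20 reads through NSL3 RNAi alone, and families outside HTT were not counted in this way. These counts therefore carry no weight of their own. TART.11 had 0, 1 and 0 reads in NSL1 RNAi, 0 in all 3 NSL2 RNAi libraries and 5, 36 and 13 in NSL3 RNAi, against 3, 8 and 2 in white RNAi. TART.26 had 0 reads in all 6 NSL1 and NSL2 RNAi libraries and 3, 15 and 7 in NSL3 RNAi, against 0, 0 and 3 in white RNAi. TART.11 and TART.26 were chosen after their values were seen.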
